A study of Oryctolagus cuniculus with 6 samples.

Results

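NOX4, DUOX1 and DUOX2 are 3 genes of the NADPH oxidase family, taken by symbol from a table of 421 mRNA transcripts of rabbit ear scars, in which each had 1 transcript. The scars were labelled hypertrophic and came from female New Zealand White rabbits. Full-thickness wounds, 6 on each ear, had received ADSC-Exos (exosomes, small vesicles secreted by adipose-derived stem cells, 100 µg in 2 ml) in 3 rabbits, and saline in the 3 Control rabbits. All tissue for sequencing was taken on day 21. The series text describes application over the first 3 days, whereas the sample labels speak of treatment for 21 days. No transgene or mutation is named for either arm. The labels name neither the donor of the stem cells nor how the wounds of 1 animal were pooled.

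NADPH oxidases are membrane enzymes that pass electrons from NADPH across a membrane to oxygen, and so make superoxide or hydrogen peroxide as their main product rather than as a by-product. NOX4 releases mostly hydrogen peroxide, is thought to be active whenever it is made, needs the partner subunit p22phox (CYBA), and is known from fibroblasts, where TGF-beta induces it during myofibroblast formation. DUOX1 and DUOX2, the dual oxidases, carry a peroxidase-like domain outside the cell and calcium-binding EF hands inside it, and belong mainly to epithelia and to the thyroid. Each needs a maturation factor, DUOXA1 or DUOXA2, to reach the cell surface. In the RefSeq gene table of the rabbit assembly mOryCun1.1 the order on chromosome 12 is DUOX2, DUOXA2, DUOXA1 and DUOX1, with DUOXA1 and DUOX1 overlapping, while NOX4 lies on chromosome 1. Since DUOX1 and DUOX2 are related in sequence, and the strand setting of the authors' counting is not given, reads of this cluster could have been shared between its genes.

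The table is a selection: every transcript in it has an absolute log2 difference over 1 and a p-value under 0.05 in the authors' own comparison of these rabbits, so the presence of the 3 oxidases already reflects that contrast. Values below are normalized reads (whole reads divided by the size factor of the library) or log2(normalized reads + 1), the scale of the deposited table. Total depth is unknown, but the mRNA size factors of ADSC-Exos rabbits 1, 2 and 3 were close together, at 1.01, 0.988 and 0.981. The listed mRNAs together held 86844 reads in ADSC-Exos rabbit 1, 223668 and 224554 in ADSC-Exos rabbits 2 and 3, and 100758 to 155547 in Control rabbits, so rabbit 1 stood apart from the others of its arm. Among the 242 transcripts listed as higher in ADSC-Exos scars, rabbit 1 lay a median of 0.42 above the Control mean on the log2 scale, rabbit 2 a median of 2.14 and rabbit 3 a median of 2.13. The difference between the arms for each oxidase, for their sum and for the DUOX2 share is therefore also given without rabbit 1.

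All 3 oxidases had higher arm means in ADSC-Exos scars, and in all 3 the high values were those of ADSC-Exos rabbits 2 and 3. In rabbit 1 each of them was below every Control rabbit. The arms overlapped for all 3. None had an FDR or adjusted p under 0.05 for the difference between the arms. Each had an unadjusted p-value under 0.05 in the authors' comparison, as every listed transcript did by selection. In bulk tissue, more RNA per cell and more cells of a type that carries the RNA cannot be told apart.

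NOX4 (ENSOCUT00000016691 of ENSOCUG00000016685) had 17.9, 70.8 and 151 normalized reads in ADSC-Exos rabbits 1, 2 and 3, against 24.5, 24.0 and 32.6 in Control rabbits 1, 2 and 3. Rabbit 3 was thus the highest and rabbit 1 the lowest of the 6 animals, while the Control rabbits stayed close together. These values rest on 18, 70 and 148 reads in ADSC-Exos and on 29, 24 and 29 reads in Control libraries. The 95% Poisson interval of ADSC-Exos rabbit 1 ran from 10.6 to 28.3 normalized reads and reached the values of 2 Control rabbits, so its lower value was not resolved from theirs at this depth. ADSC-Exos rabbit 2, at 55.2 to 89.5, and rabbit 3, at 128 to 177, had intervals above that of every Control rabbit. Such intervals cover counting error only.

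On the log2 scale NOX4 was at 5.88 ± 1.52 in ADSC-Exos and 4.80 ± 0.24 in Control scars (SD, n = 3 each). The difference was 1.09 (SE 0.76; 95% interval -0.67 to 2.85). It became 1.91 without ADSC-Exos rabbit 1 and 0.41 without ADSC-Exos rabbit 3. ADSC-Exos rabbit 3 had 5.58 times, rabbit 2 had 2.62 times and rabbit 1 had 0.662 times the Control mean of normalized reads.

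DUOX1 (ENSOCUT00000014320 of ENSOCUG00000014307), the dual oxidase known from the epidermis and the airway lining, was the best counted of the 3. It had 1057, 9034 and 5422 normalized reads in ADSC-Exos rabbits 1, 2 and 3, against 1790, 1411 and 1791 in Control rabbits 1, 2 and 3. Here rabbit 2, not rabbit 3, was the highest animal. With 1064 reads behind it, ADSC-Exos rabbit 1 had a Poisson interval of 995 to 1123, which lay below that of every Control rabbit, the lowest of which began at 1339. The lower DUOX1 value of rabbit 1 was thus larger than counting error, though 1 animal gives no measure of the spread between animals.

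DUOX1 averaged 11.86 ± 1.62 in ADSC-Exos and 10.69 ± 0.20 in Control scars on the log2 scale (SD, n = 3 each). The difference was 1.17 (SE 0.80; 95% interval -0.68 to 3.02). It was 2.08 without ADSC-Exos rabbit 1, 0.53 without ADSC-Exos rabbit 2, and 0.66 after quantile normalization of the table. Relative to the Control mean of normalized reads, rabbit 1 stood at 0.635 times, rabbit 2 at 5.43 times and rabbit 3 at 3.26 times.

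DUOX2 (ENSOCUT00000014278 of ENSOCUG00000014255), the dual oxidase that supplies hydrogen peroxide for thyroid hormone synthesis and for defence at mucosal surfaces, had 46.7, 428 and 283 normalized reads in ADSC-Exos rabbits 1, 2 and 3. In Control rabbits 1, 2 and 3 it had 65.9, 48.0 and 64.1. Rabbits 2 and 3 were again the high animals, in the same order as for DUOX1. Rabbit 1 and Control rabbit 2 could hardly be separated, at 47 and 48 reads. On the log2 scale the gap from the lower of rabbits 2 and 3 to the highest Control rabbit was 2.09, against 1.60 for DUOX1 and 1.10 for NOX4.

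DUOX2 had the largest difference of the 3, with 7.49 ± 1.68 in ADSC-Exos and 5.90 ± 0.25 in Control scars on the log2 scale (SD, n = 3 each). That is a difference of 1.59 (SE 0.82; 95% interval -0.30 to 3.48). Without ADSC-Exos rabbit 1 it was 2.55, and without ADSC-Exos rabbit 2 it was 0.96. Rabbits 2 and 3 had 7.22 and 4.78 times the Control mean of normalized reads, and rabbit 1 had 0.787 times.

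**Figure D1:**
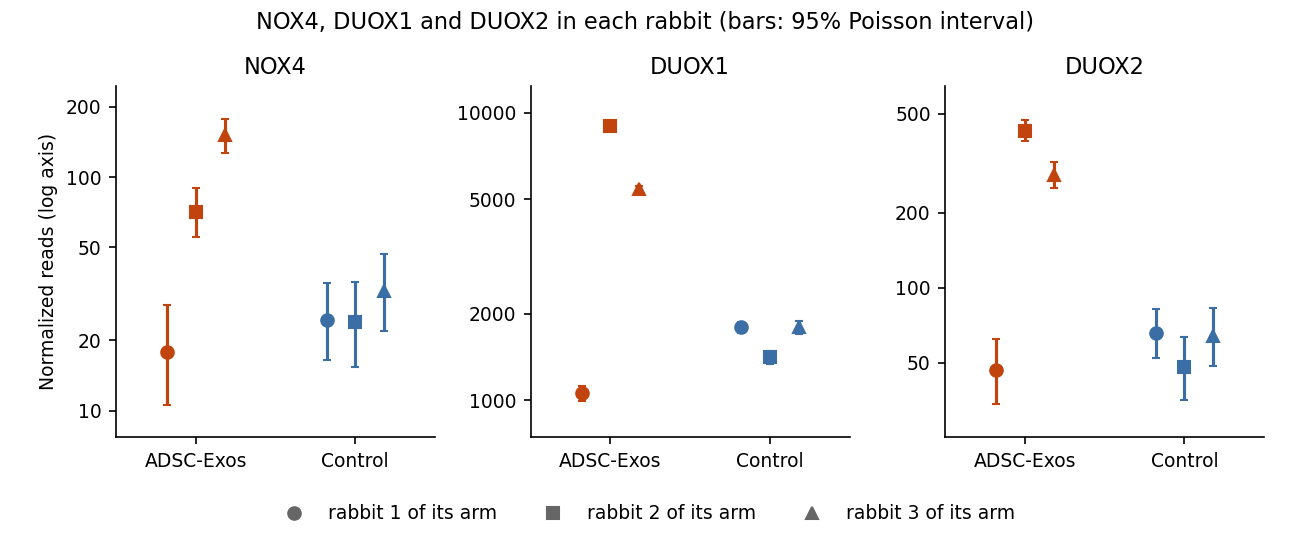
Normalized reads (log axis) of NOX4, DUOX1 and DUOX2 in each of the 3 ADSC-Exos and 3 Control rabbits, where marker shapes give the rabbit's number within its arm and bars the 95% Poisson interval. In each panel ADSC-Exos rabbits 2 and 3 lie above every Control rabbit and ADSC-Exos rabbit 1 lies below them, by 47 against 48 reads for DUOX2.

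The comparison of the arms asked whether the oxidase transcripts differed in scars that had received exosomes. In the authors' deposited table the p-value was 0.0020 for DUOX2, 0.028 for NOX4 and 0.039 for DUOX1, and the FDR was 0.14, 0.52 and 0.58 in that order. None of the 3 thus had an FDR under 0.05 in the authors' deposited table, where 11.6% of the 421 listed mRNAs did, among them the 5.23% of the 421 that were higher in ADSC-Exos scars. By limma on the same log2 values, the adjusted p over the 17743 transcripts tested was 1 for each of the 3. Limma called 0% of the listed mRNAs at that threshold. Unadjusted limma p-values were 0.088 for DUOX2, 0.18 for DUOX1 and 0.19 for NOX4, so 0 of 3 were under 0.05, a mark that 193 listed mRNAs or 45.8% reached.

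The arms overlapped for each oxidase, whereas they did not overlap for 53.7% of the listed mRNAs. An exact permutation test of the log2 values, two-sided, gave p = 0.4 for each gene, where the smallest p that 3 rabbits against 3 allow is 0.1. The median difference of the 3 was 1.17, beside 1.56 over the 242 mRNAs listed as higher and 1.12 over all 421. The value over all 421 is a signed median of transcripts listed as higher and as lower, so it is no typical difference. NOX4 and DUOX1 thus lay below the median of the mRNAs listed as higher, and DUOX2 close to it.

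Limma's intervals narrowed when ADSC-Exos rabbit 1 was left out. NOX4 then had a 95% interval of 0.78 to 3.05, DUOX1 one of 1.19 to 2.97 and DUOX2 one of 1.65 to 3.45. The adjusted p over 17743 transcripts was still 0.72 for NOX4, 0.35 for DUOX1 and 0.28 for DUOX2. Rabbit 1 carries the same labels as the other treated animals, and leaving it out describes the dependence on 1 animal and is no test of the treatment.

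**Figure D2:**
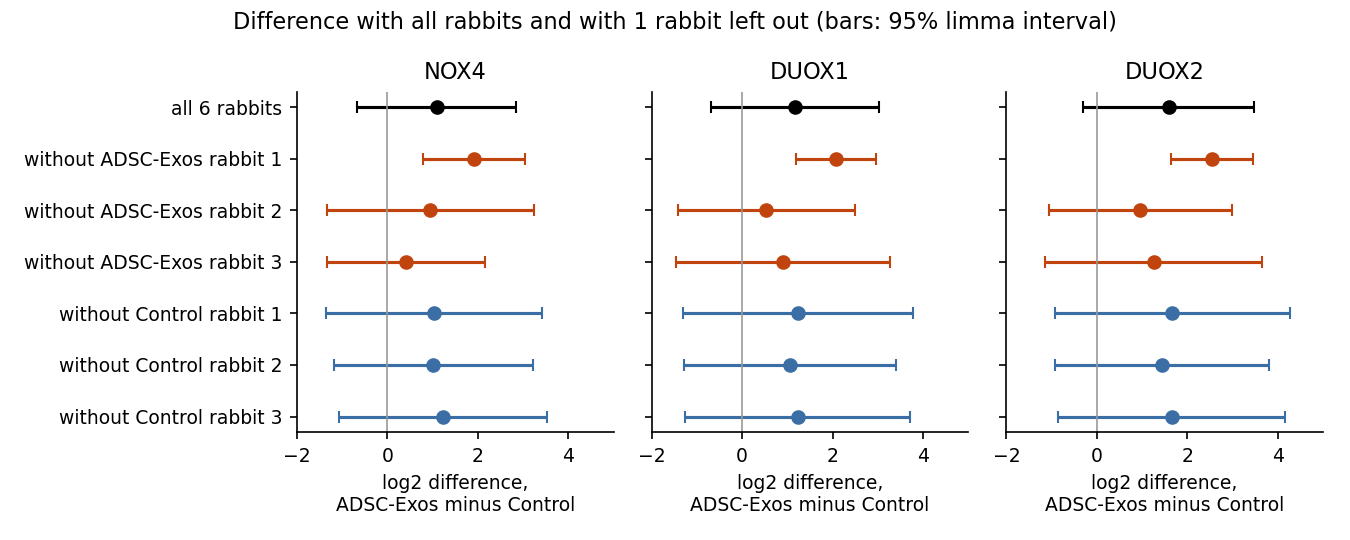
Log2 difference (ADSC-Exos minus Control) of NOX4, DUOX1 and DUOX2 with all 6 rabbits in black, without 1 ADSC-Exos rabbit in red and without 1 Control rabbit in blue, with limma's 95% intervals as bars. With all rabbits the intervals of NOX4 (-0.67 to 2.85), DUOX1 (-0.68 to 3.02) and DUOX2 (-0.30 to 3.48) cross 0, and without ADSC-Exos rabbit 1 they do not. With any other rabbit left out they all cross 0. Limma's adjusted p without ADSC-Exos rabbit 1 was still 0.28 to 0.72.

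The order of the animals was shared with part of the table. Of the 242 mRNAs listed as higher, 201, or 83.1%, had ADSC-Exos rabbits 2 and 3 above rabbit 1 and above every Control rabbit. Of the 242, 22 or 9.09% also had rabbit 1 below every Control rabbit, and all 3 oxidases were among them. None of the 242 had rabbit 2 or rabbit 3 as the low animal in this way. The log2 distance of rabbit 1 from the Control mean was -0.56 for NOX4, -0.65 for DUOX1 and -0.32 for DUOX2, where the 242 had a median of 0.42. This order was counted after the values had been seen, and the 242 share the same rabbits, so the count describes the table and tests nothing.

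The 2 dual oxidases followed each other closely. Their log2 values had a Pearson correlation of 0.991 over the 6 rabbits, and their deviations from the arm means one of 0.998. NOX4 had a correlation of 0.87 with DUOX1 and of 0.89 with DUOX2, as its high animal was rabbit 3 rather than rabbit 2. The points share libraries and size factors, and no correlation was computed without rabbit 1. Correlations with the other 241 transcripts listed as higher had medians of 0.81 for NOX4, 0.81 for DUOX1 and 0.85 for DUOX2 on log2 values, and of 0.75, 0.79 and 0.78 on deviations, so the values between NOX4 and the dual oxidases were little above those medians.

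Within the dual oxidase pair, DUOX2 made up a larger part of the reads in ADSC-Exos scars. It gave 4.23%, 4.52% and 4.97% of the summed DUOX1 and DUOX2 reads in ADSC-Exos rabbits 1, 2 and 3, against 3.55%, 3.29% and 3.45% in Control rabbits 1, 2 and 3. The arms did not overlap in this share. They did not overlap for 53.7% of single listed mRNAs either, and shares of other pairs were not computed. Rabbit 1, whose levels of both genes were low, lay on the side of its own arm, on 47 DUOX2 reads. The means were 4.57% ± 0.37 in ADSC-Exos and 3.43% ± 0.13 in Control scars (SD, n = 3 each), a difference of 1.14 percentage points, or 1.32 without ADSC-Exos rabbit 1.

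The exact two-sided permutation test of the DUOX2 share gave p = 0.1, the smallest this design allows. Exact Clopper-Pearson 95% intervals ran from 3.12% to 5.59% in ADSC-Exos rabbit 1, which covers all 3 Control values, from 4.11% to 4.97% in rabbit 2 and from 4.41% to 5.57% in rabbit 3. In Control rabbits 1, 2 and 3 they ran from 2.82% to 4.41%, from 2.43% to 4.34% and from 2.63% to 4.45%. The interval of ADSC-Exos rabbit 2 thus overlapped all 3 Control intervals, and that of rabbit 3 overlapped the interval of Control rabbit 3. Size factors cancel in this share. Both genes had been selected by the authors in the same contrast, DUOX2 with the larger difference, and the share was taken after the values had been seen. Since transcript lengths were not used, the share compares rabbits and does not give the relative abundance of the 2 mRNAs. The share of NOX4 in the reads of all 3 genes had no such separation, at 1.59%, 0.743% and 2.58% in ADSC-Exos and 1.30%, 1.62% and 1.73% in Control rabbits 1, 2 and 3.

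**Figure D3:**
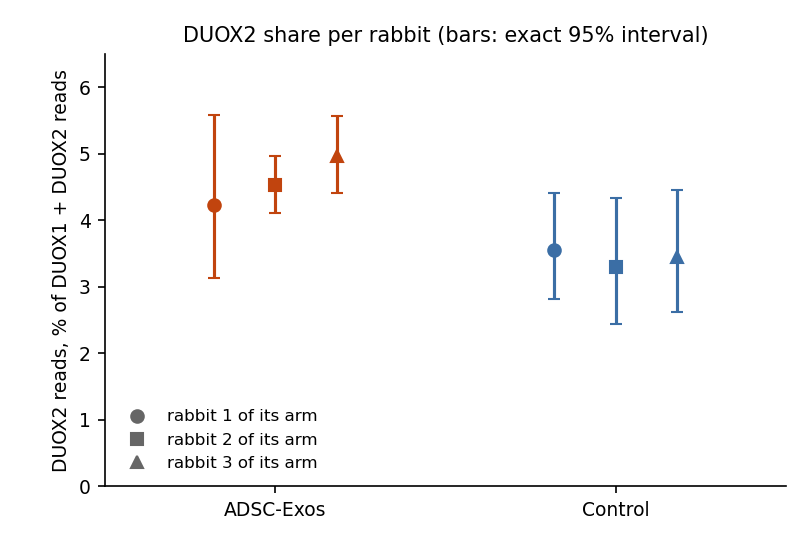
Share of DUOX2 in the summed reads of DUOX1 and DUOX2 (percent) in each ADSC-Exos and Control rabbit, with exact 95% binomial intervals as bars and marker shapes for the rabbit's number within its arm. The ADSC-Exos values of 4.23% to 4.97% lie above the Control values of 3.29% to 3.55%, while the interval of ADSC-Exos rabbit 1 covers all 3 Control values. Every ADSC-Exos interval overlaps that of Control rabbit 3.

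Summed over the 3 genes, normalized reads were 1122, 9533 and 5856 in ADSC-Exos rabbits 1, 2 and 3, against 1881, 1483 and 1888 in Control rabbits 1, 2 and 3. DUOX1 gave between 92.6% and 95.2% of the sum in every animal, so the sum follows DUOX1. The log2 of the sum differed by 1.19 between the arms, and by 2.10 without ADSC-Exos rabbit 1 or 0.56 without rabbit 2.

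Lists of 91 further genes around the oxidases were looked up, and 2 of them, AOX1 and IL13, were among the listed mRNAs. That is 2.20% of the lists, near the 2.37% that the 421 listed mRNAs make up of the 17743 mRNA and lncRNA transcripts tested. The lists of other oxidases with their subunits and maturation factors (17 genes, CYBA, DUOXA1 and DUOXA2 included), peroxidases (6), enzymes that remove peroxide and superoxide (25), NRF2 targets (8) and inducers and fibrotic partners of NOX4 (16) had 0 listed members. The levels of those genes were not analysed here. Neither AOX1 nor IL13 had an FDR under 0.05 in the authors' deposited table, and limma called neither.

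AOX1, aldehyde oxidase, a molybdenum enzyme that also makes superoxide and hydrogen peroxide, followed the oxidases. It had 1345, 11768 and 9369 normalized reads in ADSC-Exos rabbits 1, 2 and 3, against 1910, 2492 and 2696 in Control rabbits 1, 2 and 3. Rabbit 1 was again the lowest of the 6, so the arms overlapped. Its log2 difference was 1.18 (SE 0.84), with an FDR of 0.60 in the authors' deposited table.

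IL13, a type 2 cytokine that induces DUOX1 in cultured human airway epithelium, ran the other way at a very low count. It had 1, 0 and 0 reads in ADSC-Exos rabbits 1, 2 and 3, against 2, 5 and 6 reads in Control rabbits 1, 2 and 3. The arms did not overlap, as for 53.7% of the listed mRNAs. Corrected for size factors the ratio of ADSC-Exos to Control was 0.0795, with a 95% counting interval of 0.0019 to 0.53. That interval pools the reads of each arm and leaves out the spread between rabbits. An exact two-sided permutation test of IL13 gave p = 0.1, the smallest this design allows. The FDR in the authors' deposited table was 0.53.

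By the annotation in the deposited table, 4 of the 421 mRNAs carry the term oxidoreductase activity acting on NAD(P)H, namely the 3 oxidases and NDUFAF2. NDUFAF2, an assembly factor of mitochondrial complex I, had 23.9, 52.6 and 55.1 normalized reads in ADSC-Exos rabbits 1, 2 and 3. In Control rabbits 1, 2 and 3 it had 17.7, 15.0 and 19.1, so that its arms did not overlap and rabbit 1 was not below the Control rabbits. None of the 1694 listed circular RNAs had NOX4, DUOX1 or DUOX2 as host gene. None of the 133 listed long noncoding RNAs was annotated within 3 kb of 1 of the oxidase transcripts.

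The transcripts most like each oxidase were taken as the 3 with a symbol and the highest Pearson correlation over the 6 rabbits, once on log2 values and once on deviations from the arm means. FAM107A, a stress-induced actin-binding protein, was the closest to DUOX1 on both measures, at a correlation of 0.996 on each, and it was among the closest 3 of DUOX2, at 0.987 and 0.999. Its reads were 70, 500 and 362 in ADSC-Exos rabbits 1, 2 and 3, against 155, 99 and 106 in Control rabbits 1, 2 and 3. FAM107A is thus another transcript with rabbit 1 below every Control rabbit. LRP2, the endocytic receptor megalin, had 26, 472 and 244 reads in ADSC-Exos and 41, 42 and 29 in Control rabbits, with a correlation of 0.98 with DUOX1. AOX1 was the next, at 0.98.

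For NOX4 the closest were FAM71A at 0.99, NKAPL at 0.97 and PLA2G4D at 0.97 on log2 values, and OPN1SW at 0.99, NKAPL at 0.99 and FAM71A at 0.98 on deviations. PLA2G4D, a cytosolic phospholipase A2 known from psoriatic human skin, had 88, 349 and 584 reads in ADSC-Exos rabbits 1, 2 and 3, against 111, 156 and 117 in Control rabbits 1, 2 and 3. Like NOX4, PLA2G4D was highest in rabbit 3. OPN1SW, the short-wave cone opsin, had 19, 56 and 97 reads in ADSC-Exos and 17, 11 and 13 reads in Control rabbits.

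The remaining likenesses involve very low counts. OR10V1 and ERMN for DUOX2 and NKAPL for NOX4 had reads in ADSC-Exos rabbits 2 and 3 only, 6 to 19 in each. CCDC129 (DUOX2) and RCVRN (DUOX1) had no Control reads. Of the other 241 transcripts listed as higher, 53 had a correlation over 0.95 with DUOX2 on log2 values, 30 with DUOX1 and 8 with NOX4, so a high correlation was common for the dual oxidases and less so for NOX4.

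**Figure D4:**
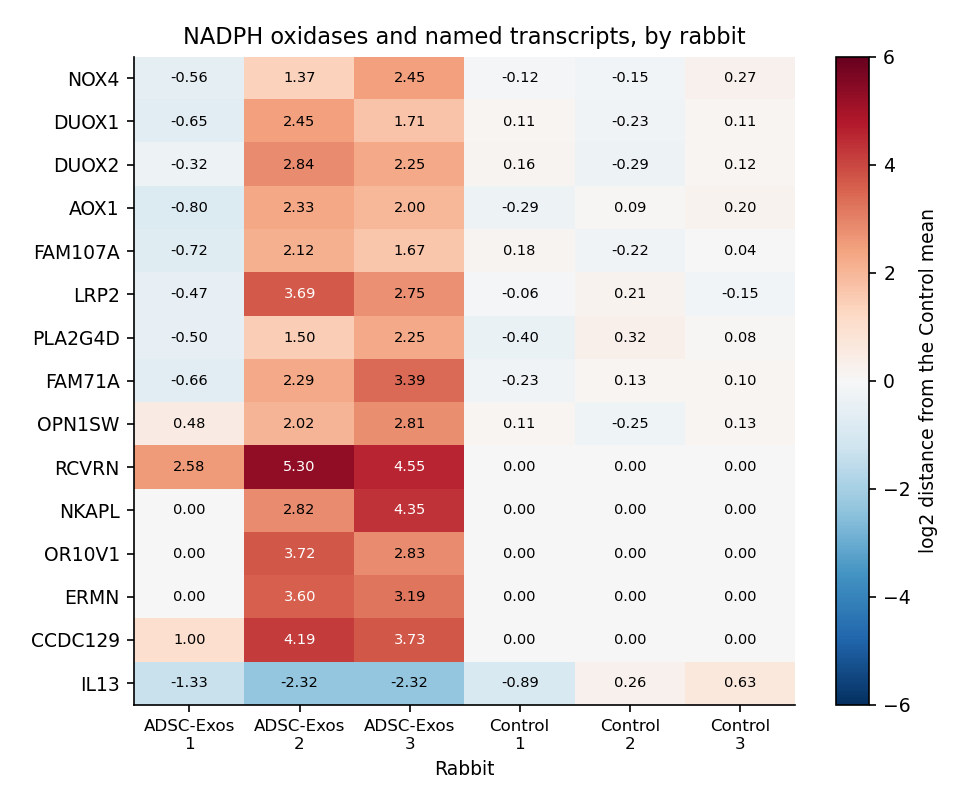
Log2 distance of each rabbit from the Control mean for the 3 NADPH oxidases, the listed genes of the oxidase lists (AOX1, IL13) and the most alike transcripts, with ADSC-Exos rabbits in the left 3 columns and Control rabbits in the right 3. Red is above and blue below the Control mean: NOX4, DUOX1, DUOX2, AOX1, FAM107A, LRP2, PLA2G4D and FAM71A are red in ADSC-Exos rabbits 2 and 3 and blue in rabbit 1.

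Of 112 marker genes in 13 cell type lists, 17 were listed, where the listed mRNAs make up 2.37% of all transcripts tested. Markers were thus listed more often than transcripts at large, though the lists were chosen with earlier results known. The listed markers did not all have the same order of animals. High values in ADSC-Exos rabbits 2 and 3, as for TGM5 and CTHRC1, are found in 83.1% of all transcripts listed as higher. Of 17 keratinocyte markers 1 was listed, the transglutaminase gene TGM5, at 1271, 6102 and 3186 normalized reads in ADSC-Exos rabbits 1, 2 and 3, against 1028, 1188 and 1623 in Control rabbits 1, 2 and 3. As with DUOX1, rabbit 2 was the highest and rabbit 3 the next, but TGM5 in rabbit 1 lay within the Control range. Of 12 myofibroblast and fibroblast markers 1 was listed, CTHRC1, whose protein is secreted by matrix-forming fibroblasts, with 0, 87 and 394 reads in ADSC-Exos rabbits 1, 2 and 3, against 9, 12 and 1 reads in Control rabbits 1, 2 and 3. CTHRC1 had the order of NOX4 within the ADSC-Exos arm, with rabbit 3 highest and rabbit 1 at 0. Within that arm, each of these 2 likenesses thus rests on the order of rabbits 2 and 3 and on 1 listed marker.

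Of 11 macrophage markers 2 were listed, MSR1 and MMP12, whose summed normalized reads were 127, 986 and 455 in ADSC-Exos rabbits 1, 2 and 3, against 86.2, 147 and 196 in Control rabbits 1, 2 and 3. The 2 differed in order, with MSR1 at 311 in rabbit 2 and 345 in rabbit 3, and MMP12 at 675 and 110. The only listed sebaceous gland marker of 12, the melanocortin receptor MC5R, was lower in ADSC-Exos scars, at 49.7, 107 and 146 normalized reads, against 220, 361 and 347 in Control scars. Cartilage and red cell lists had 3 listed genes each, Schwann cell and skeletal muscle lists 2 each, neutrophil and osteoclast lists 1 each, and adipocyte, endothelium and T cell lists 0. By arm means, all listed red cell, Schwann cell, skeletal muscle and neutrophil genes were lower in ADSC-Exos scars. For some, these means rest on 1 or 2 Control rabbits. The 2 transcripts of the neutrophil gene S100A8 had 393 and 1150 normalized reads in Control rabbit 3, and at most 169 in any other rabbit. The muscle genes MYH1 and MYH7 were at 2.25 and 5.62 in Control rabbit 3, near their ADSC-Exos values. Of the cartilage genes 2 were lower and 1 was higher, and the osteoclast gene ATP6V0D2 was higher. The part of these cell types in the oxidase values was not tested, and the unlisted markers of all 13 lists were not analysed here. The labelled tissue could not be checked in full, since defining keratinocyte and fibroblast genes such as KRT5, KRT14 and COL1A1 were not analysed here either.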

How the data were processed

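RNA of 6 rabbit ear scars was sequenced by the authors, 3 per arm, 1 library per rabbit. STAR 2.7.6a, HTSeq 2.0.3, DESeq2 1.30.1, FastQC 1.0.0 and Trimmomatic 0.40 are named, with no roles, per the submitters' processing notes. For the build, none is given in the sources used here. The authors deposited log2 values. Subtracting 1 from 2 raised to the value gave whole multiples of 1 step per library (tolerance 0.01, 100% of values), so reads were recovered, with mRNA size factors of 0.890 to 1.18. The authors also deposited p-values and FDR, whose test the tables do not name. Their ratios fit 17743 transcripts tested (53.4% within 0.0001 of a whole rank). The count recovered was put through no count test.

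The arms were compared over all 421 listed mRNAs with limma 3.58.1 (trend, robust) in R 4.3.3, with Benjamini-Hochberg adjustment over 17743 transcripts, each unlisted one counted as unchanged, and a threshold of 0.05. This can be too strict, and limma's prior comes from selected transcripts. The script was tested on simulated data with the same set dispersion for every transcript. That checks the code, but does not measure how well changes in transcripts as variable as the oxidases are found. Permutation tests and intervals used SciPy 1.17.1. The oxidases, gene lists and marker lists were chosen with earlier results of these data known. Named are the oxidases, listed members of those lists, NDUFAF2 by an annotation search added after seeing the data, and the 3 most correlated transcripts per oxidase and measure. Of the 421 transcripts, 100 have no symbol. No sequence was printed. The labels name no link between same-numbered rabbits beyond the number.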

Additional observations from a re-analysis of the deposited data

How the results depend on the processing

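The log2 differences of NOX4, DUOX1 and DUOX2 kept a positive sign in all 15 alternatives each. Limma's p stayed over 0.05, adjusted in all alternatives but the unadjusted one. Alternatives that changed only the filter, limma's trend and robust settings, the block or the adjustment could not change the difference itself. Leaving out 1 rabbit gave 0.41 to 1.91 for NOX4, 0.53 to 2.08 for DUOX1, 0.96 to 2.55 for DUOX2 and 0.56 to 2.10 for the log2 of their summed reads. The DUOX2 share difference was 0.95 to 1.32 percentage points. Quantile normalization moved the signed median of all listed mRNAs from 1.12 to 0.85, and the oxidases to 0.84, 0.66 and 1.32. Adjusted mRNA calls, 0 as reported, ranged from 0 to 2 with a rabbit left out (2 when it was ADSC-Exos rabbit 1), and were 3 adjusted over the table and 193 unadjusted; those 193 became 127 with a filter at 10 normalized reads, which leaves fewer transcripts, and 94 to 311 without 1 rabbit. The counts without a rabbit were 311, 101 and 97 for ADSC-Exos rabbits 1 to 3, and 141, 94 and 117 for Control rabbits 1 to 3. The other causes were not tested. The unadjusted counts and the DUOX2 share were chosen after seeing the data. With the replicate number as a block there were 0 adjusted calls and 169 unadjusted. The oxidase differences stayed at 1.09, 1.17 and 1.59, which this block cannot change, since each number has 1 rabbit per arm. Their unadjusted limma p-values with the block were 0.16 for NOX4, 0.19 for DUOX1 and 0.11 for DUOX2. Same-numbered rabbits had correlations of deviations of -0.025 to 0.014 over the listed mRNAs. These cannot decide whether the numbers pair the animals, since the transcripts were selected for the contrast and each arm has 3 rabbits. Depth limits NOX4 and DUOX2 in the animals with under 80 reads.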

Other observations

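Among the 133 listed long noncoding RNAs, MSTRG.2584.1 had the highest correlation over the 6 rabbits with both dual oxidases, 0.99 with DUOX1 and 0.99 with DUOX2 on log2 values. It had 9, 73 and 66 reads in ADSC-Exos rabbits 1, 2 and 3, against 17, 12 and 14 reads in Control rabbits 1, 2 and 3, so rabbit 1 was below every Control rabbit in it too. MSTRG.13535.1, at 0.98, was the best counted of those closest to NOX4, with 352, 1436 and 2092 reads in ADSC-Exos and 461, 538 and 567 reads in Control rabbits. Like NOX4, it was highest in ADSC-Exos rabbit 3. Both were picked for their likeness, and the deposited table pairs neither with a gene symbol.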
